A study of Mus musculus with 6 samples.

Results

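The genes described here are those of homologous recombination, DNA end resection and the Fanconi anaemia pathway, compared between mouse lung endothelial cells that overexpress L1CAM and cells with an empty vector. The set was given as 33 named genes out of 19938 genes tested on the arrays. A gene was measured where a probe set carried its symbol and no other, and where several did, the brightest on average was taken. This held for 31 of the 33, while Rbbp8 and Xrcc2 were not analysed here. The cells came from C57BL/6 lung endothelium and had been stably transfected with full-length mouse L1CAM in an expression vector with a hygromycin resistance gene, or with that vector alone. All were grown for 4 days to confluence on crosslinked gelatin in medium with 20 percent serum, heparin and endothelial growth supplement. Each group had 3 arrays, labelled as biological replicates from independent experiments. The sample descriptions carry 1 transfectant code per group and do not say whether it was a pool or a clone, so the tests reflect the spread of cultures and not of separate transfections.

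Homologous recombination repairs a broken chromosome by copying the intact sister chromatid. Nucleases first resect the broken ends to single strands, the BRCA proteins and their partners then prepare these strands to pair with the sister, and helicases and nucleases resolve the joined molecules. The Fanconi pathway removes crosslinks between DNA strands: a core complex attaches ubiquitin to the FANCD2 and FANCI pair, which directs nucleases and recombination to the lesion. Both pathways work mainly in S and G2 phase, and many of their genes are transcribed most in dividing cells.

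The transfected gene checked the labels. L1cam read 6.50, 6.77 and 7.31 on the control arrays and 10.49, 10.60 and 10.73 on the L1CAM arrays, a 13.4-fold rise (limma adjusted p = 0.000112). L1CAM replicate 1 stood apart from the rest of its group: across all genes tested it correlated at 0.9948 and 0.9951 with the other L1CAM arrays, which correlated with each other at 0.9986, and at 0.9935 to 0.9952 with the controls. The counts of called members and of each gene list are therefore also given without it. Endothelial markers were present in both groups, with a mean level of 8 markers between 11.74 and 11.76 on the control arrays and between 11.66 and 11.70 on the L1CAM arrays. Among them Vwf lay lowest, at 6.85 ± 0.03 in control cells and 6.84 ± 0.02 in L1CAM cells (SD, n = 3 each), against array medians of 6.55 to 6.58. Of these 8 markers, and of 8 fibroblast and mural, 6 epithelial and 6 leukocyte markers, limma called 0. The 3 L1CAM arrays still lay below the 3 control arrays in 6 endothelial markers (16% of all genes) and above them in 0 (18.6%). The median difference of the endothelial markers was -0.08. At an unadjusted p under 0.05 in limma, 1 fibroblast and mural marker was lower, beside 2806 of the 19938 genes. With L1CAM replicate 1 left out, the endothelial marker Erg was called lower (-0.19, limma adjusted p = 0.0386) and 0 of the other markers were called. The mean levels of the fibroblast and mural, the epithelial and the leukocyte lists were 6.24 to 6.28, 5.60 to 5.66 and 6.42 to 6.49 on the control arrays and 6.18 to 6.32, 5.62 to 5.76 and 6.43 to 6.47 on the L1CAM arrays. Among the leukocyte markers Cd68 was high, at 12.2 in control and 12.1 in L1CAM cells, while Ptprc, which marks leukocytes at large, read 4.63 and 4.78.

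Recombination and Fanconi genes were mostly lower in L1CAM cells. Of the 31 measured genes, 14 fell and 0 rose by limma's moderated test (Benjamini-Hochberg adjusted p under 0.05, taken over the whole table). Over all genes, 8.19% were called lower and 6.85% higher. At an unadjusted p under 0.05 in limma, 23 members were lower and 2 higher, beside 2806 and 2982 of the 19938 genes. The median difference of the members, L1CAM minus control on the log2 scale, was -0.69, beside 0.02 over all genes. The 3 L1CAM arrays lay below the 3 control arrays in 21 members (16% of all genes) and above them in 1 (18.6% of all genes). A difference of -0.5 or lower was measured in 20 members, against 4.12% of all genes. The differences ran from -1.51 for Rad51ap1 to 0.48 for Rad54b.

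**Figure D1:**
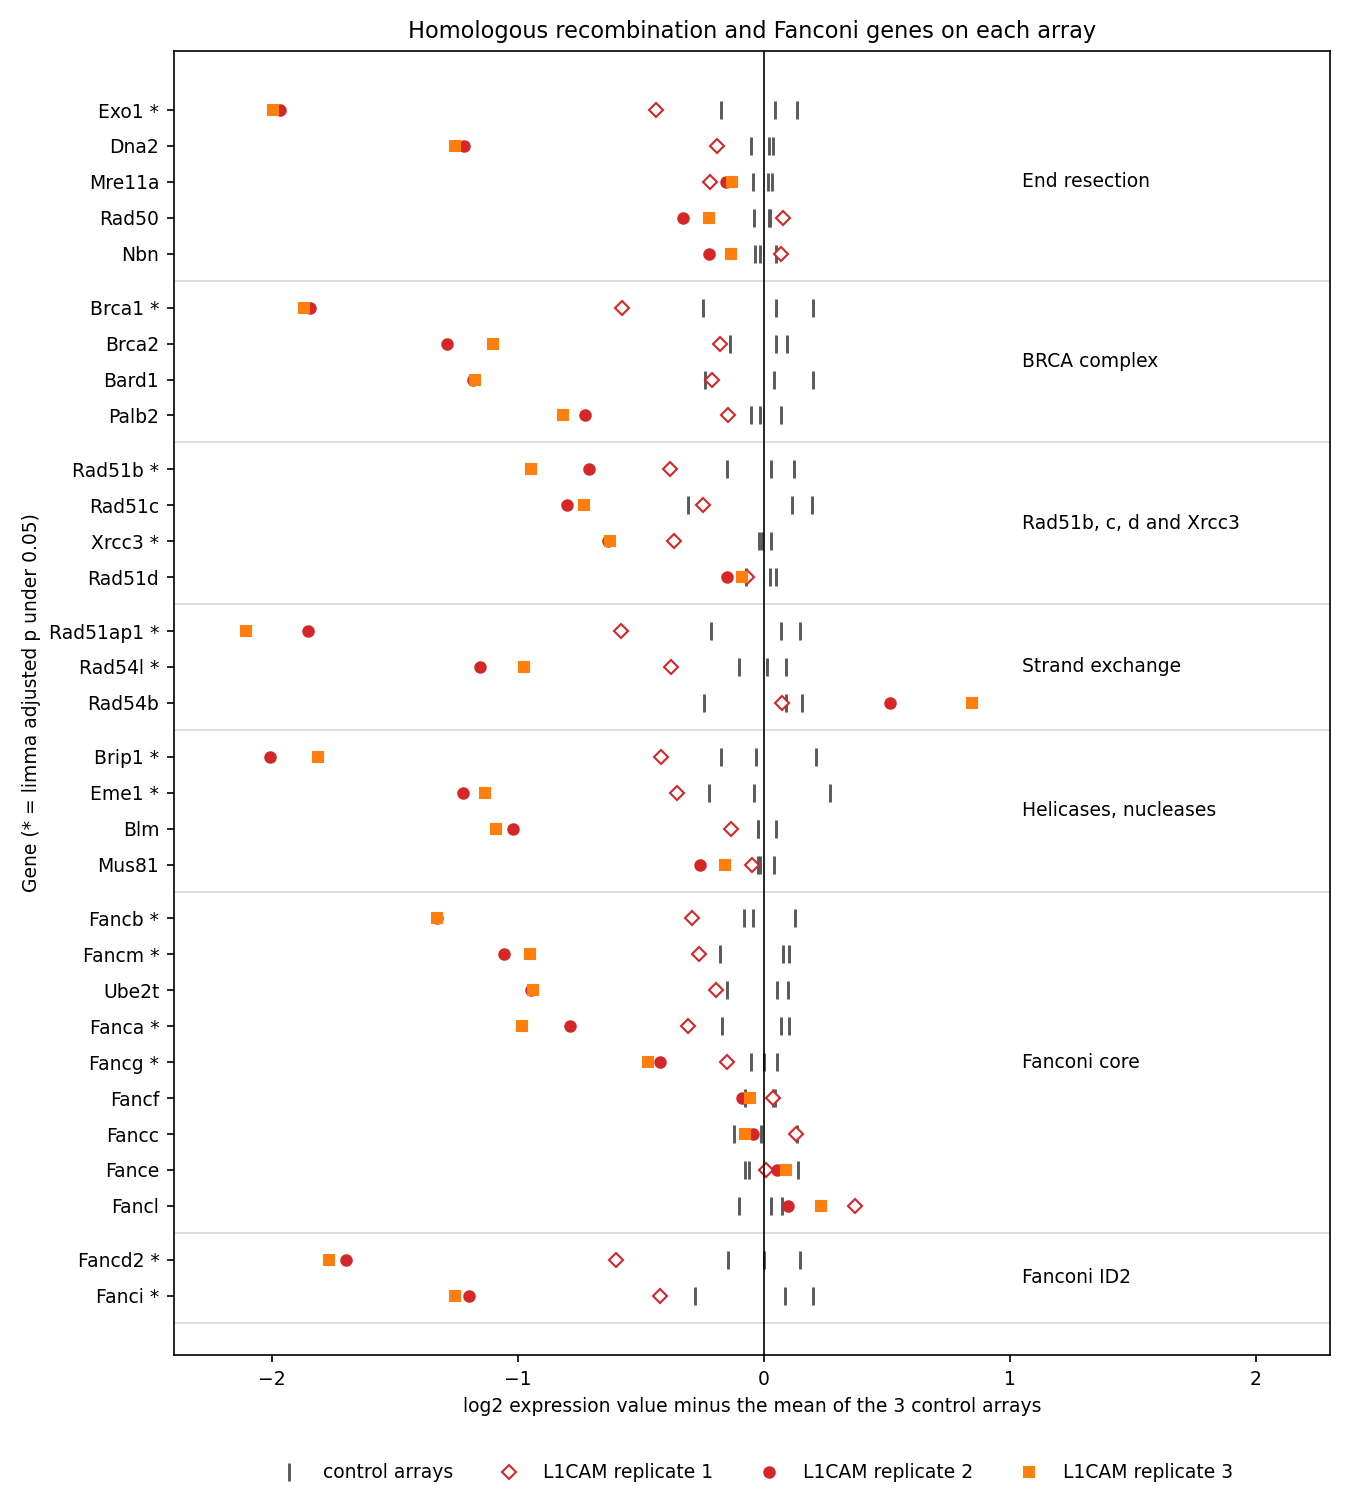
Log2 value of each measured recombination or Fanconi gene on each of the 6 arrays, minus the mean of the 3 control arrays (horizontal axis, log2 units), with genes grouped by role on the vertical axis and a star for an adjusted p under 0.05. Ticks are control arrays, and the symbols mark L1CAM replicates 1, 2 and 3. In the 14 starred genes replicates 2 and 3 lie far to the left and replicate 1 lies between them and the controls, while Fancc, Fance and Fancf stay near 0 and Rad54b lies to the right in replicates 2 and 3.

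The drop was unequal among the L1CAM cultures. In all 14 called genes L1CAM replicate 1 was the highest of the 3 L1CAM arrays and still lay below every control array. Its distance from the control mean was 21.9% to 57.9% of the mean distance of replicates 2 and 3, with a median of 32.2%. A call on all arrays itself favours genes with a low replicate 1, so these shares describe the called genes only. Among members not called, the share was for example 12.9% in Blm, 20.8% in Ube2t and 154% in Mre11a. Without L1CAM replicate 1, 23 members were called lower (12.9% of all genes) and 1 higher (12.0%). These 23 held the 14 called on all arrays and 9 more. Leaving out control replicate 1 gave 4 members called lower (4.80% of all genes). Leaving out any of the other four arrays gave 1, against 2.90% and 2.96% of all genes without control replicates 2 and 3 and 3.73% and 3.43% without L1CAM replicates 2 and 3. Of the 14 called genes, Xrcc3 alone was called in all 6 of these fits. Rad51b and Fanci were called in 2, without L1CAM replicate 1 or control replicate 1, and the other 11 only when L1CAM replicate 1 was the array left out. With an ordinary linear model 0 members were called lower (14 at an unadjusted p under 0.05, and 1.66% of all genes called), as in a limma test against a difference of 0.5 (7 at an unadjusted p under 0.05, and 0.361% of all genes called). The share of all genes at an unadjusted p under 0.05 was not computed for either test. Replicate 1 was singled out from these same values, and without it the L1CAM group has 2 arrays that lie close together. Adjusted p-values from that fit therefore leave out the spread that replicate 1 shows among cultures. These limits apply to every call below.

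Among the genes of end resection, the exonuclease of long-range resection fell and the complex that first binds a break moved little. Exo1, a 5′ to 3′ exonuclease, read 8.23, 8.54 and 8.45 on the control arrays and 7.97, 6.44 and 6.41 on the L1CAM arrays. The groups did not overlap, and replicates 2 and 3 carried most of the difference. Exo1 fell by 1.47 (SE 0.38), 2.77-fold, with a limma adjusted p of 0.0397, which rose to as much as 0.135 with another array left out. Dna2, the helicase and nuclease that resects in parallel with EXO1, read 8.41, 8.43 and 8.34 against 8.2, 7.17 and 7.13. Its difference of -0.89 (SE 0.26) missed the threshold (adjusted p = 0.0573), although the groups did not overlap. It was -1.24 without L1CAM replicate 1 (adjusted p = 1.51e-05).

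Mre11a, Rad50 and Nbn encode the MRN complex, which recognises the broken end and starts its processing. Mre11a, the nuclease subunit, read 8.97, 9.03 and 9.05 in control cells and 8.80, 8.86 and 8.89 in L1CAM cells, a difference of -0.17 (SE 0.06, adjusted p = 0.0815). Here L1CAM replicate 1 was the lowest array and not the highest. Rad50, the ATPase that tethers the ends, differed by -0.16 (95% confidence interval -0.39 to 0.08) and Nbn, the regulatory subunit, by -0.10 (-0.28 to 0.09). In both genes the 2 groups overlapped, with L1CAM replicate 1 at 8.96 and 8.44, above the mean of the controls. Another probe set of Nbn differed by 0.04 (adjusted p = 0.620 when all probe sets were tested by limma). Rad50 was called without L1CAM replicate 1 (-0.28, adjusted p = 0.0125).

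The genes of the BRCA complex all measured lower, and Brca1 passed the test. Brca1 (probe set 10391461), a ubiquitin ligase and scaffold of recombination, read 8.06, 8.51 and 8.36 in control cells and 7.73, 6.46 and 6.44 in L1CAM cells. Its mean went from 8.31 ± 0.23 to 6.88 ± 0.74 (SD, n = 3), and the SD was wider in L1CAM cells with replicate 1 high. Brca1 fell by 1.43 (SE 0.33), 2.70-fold (adjusted p = 0.0264, and up to 0.106 with another array left out).

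Bard1, the partner that BRCA1 needs for its ligase activity, read 8.36, 8.80 and 8.64 against 8.38, 7.42 and 7.42. L1CAM replicate 1 lay within the control range, so the groups overlapped, and the difference of -0.86 (SE 0.25) was not called (adjusted p = 0.0618). Bard1 has 3 probe sets: the other two differed by -0.69 and -0.76 and had adjusted p-values of 0.0222 and 0.0369 when all probe sets were tested by limma. Palb2, the bridge between BRCA1 and BRCA2, read 5.92, 6.04 and 5.96 against 5.83, 5.25 and 5.16. All 6 values lay below the array medians, so its difference of -0.56 (SE 0.16, adjusted p = 0.0554) may be understated. Brca2, which acts on the resected single strands, differed by -0.86 (SE 0.26, adjusted p = 0.0633). Without L1CAM replicate 1, Bard1, Palb2 and Brca2 were all called, at -1.18, -0.77 and -1.20.

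**Figure D2:**
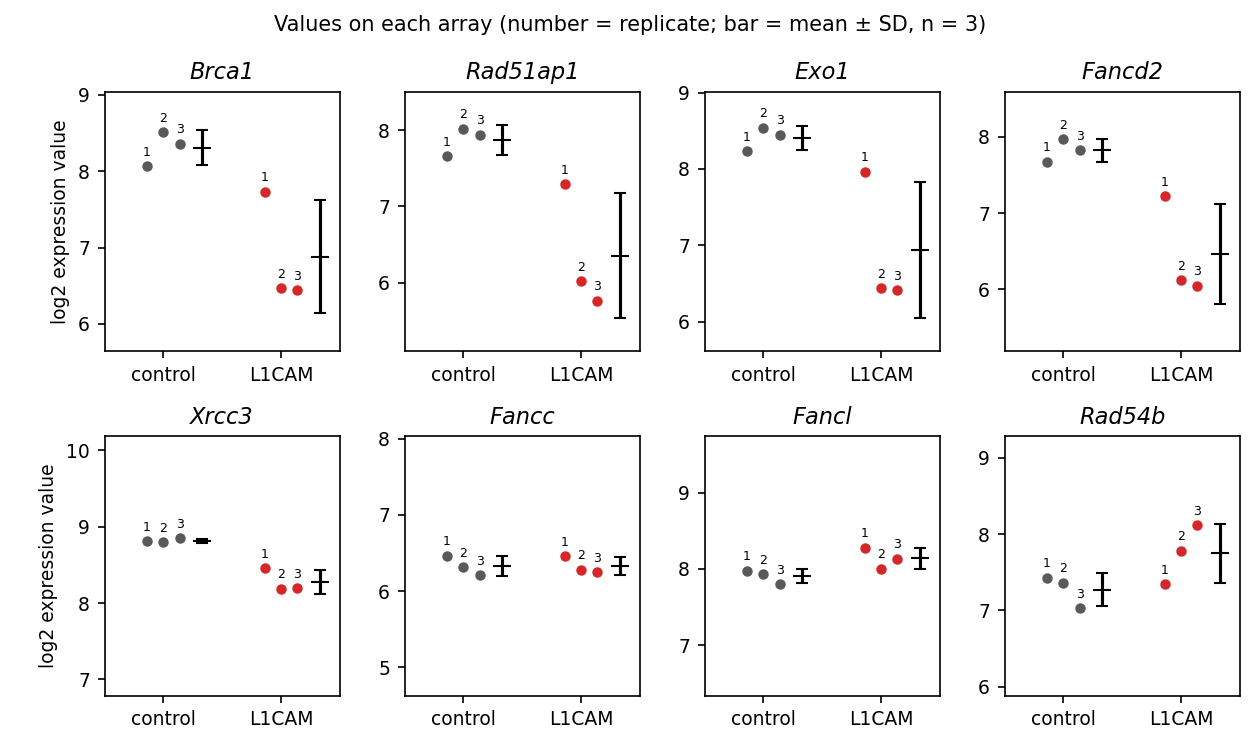
Log2 expression values (vertical axes, each spanning the same number of log2 units) of 8 genes on the control and L1CAM arrays, with the replicate number at each point and the mean ± SD of 3 arrays as bars. In Brca1, Rad51ap1, Exo1 and Fancd2 the L1CAM mean lies at 6.36 to 6.94 with replicate 1 highest, in Xrcc3 the spread is small, Fancc overlaps and Rad54b lies higher in replicates 2 and 3.

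Rad51b, Rad51c, Rad51d and Xrcc3 encode related proteins that assist strand pairing, in a complex of RAD51B, RAD51C, RAD51D and XRCC2 and in a pair of RAD51C with XRCC3. Xrcc3 had the smallest adjusted p of all members. It read 8.81, 8.80 and 8.85 on the control arrays and 8.45, 8.19 and 8.19 on the L1CAM arrays. All 3 L1CAM cultures were clearly lower than controls that differed among themselves by 0.03 (SD, n = 3). Xrcc3 fell by 0.54 (SE 0.08), 1.46-fold, with a limma adjusted p of 0.00579, and of at most 0.0358 with any array left out. Rad51b read 6.09, 6.37 and 6.27 against 5.86, 5.53 and 5.30. It fell by 0.68 (SE 0.14), 1.6-fold (adjusted p = 0.0188, and up to 0.0831 with another array left out), but all 6 values lay below the array medians, so this fold is not exact.

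Rad51c, a member of both complexes, read 7.87, 8.37 and 8.29 against 7.92, 7.37 and 7.44. Control replicate 1 was low and L1CAM replicate 1 lay above it, so the groups overlapped (-0.59, SE 0.17, adjusted p = 0.0598). Rad51c was called without L1CAM replicate 1 (-0.77, adjusted p = 0.00454) or control replicate 1. Rad51d read 9.12, 9.03 and 9.15 against 9.03, 8.95 and 9.01. Its difference of -0.10 had a 95% confidence interval of -0.24 to 0.03, which leaves out a drop as large as that of Rad51b.

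Of 3 genes whose proteins promote strand pairing and exchange, 2 fell and the other measured higher. Rad51ap1 (probe set 10548086), which promotes strand pairing, read 7.65, 8.02 and 7.94 in control cells and 7.29, 6.02 and 5.76 in L1CAM cells. It had the largest drop of all members, 1.51 (SE 0.35) or 2.86-fold (adjusted p = 0.0284, and up to 0.109 with another array left out). Its L1CAM mean of 6.36 lay below the array medians. Rad54l, the motor protein that drives strand exchange, read 7.41, 7.61 and 7.53 against 7.14, 6.36 and 6.54, and fell 1.79-fold (adjusted p = 0.0222).

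Rad54b, the paralog of Rad54l, had the largest positive difference of the members. It read 7.43, 7.36 and 7.03 on the control arrays and 7.35, 7.78 and 8.12 on the L1CAM arrays. L1CAM replicate 1 lay within the control range and replicates 2 and 3 lay above it. The difference of 0.48 (SE 0.19) was not called (adjusted p = 0.144), and was 0.68 without L1CAM replicate 1 (adjusted p = 0.00817).

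Helicases and nucleases that unwind or cut joined molecules also measured lower. Brip1, the helicase that binds BRCA1 and is also a Fanconi gene, read 7.99, 8.37 and 8.13 against 7.74, 6.15 and 6.35. It fell by 1.41 (SE 0.37), 2.66-fold (adjusted p = 0.0427, and up to 0.147 with another array left out). Blm, the helicase that dissolves double Holliday junctions, read 7.85, 7.93 and 7.85 against 7.74, 6.86 and 6.78. Its groups did not overlap, yet with replicate 1 so close to the controls the difference of -0.75 (SE 0.23) was not called (adjusted p = 0.0658, and 2.47e-05 without L1CAM replicate 1).

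Mus81 and Eme1 encode the subunits of 1 junction-cutting nuclease and differed in size of change. Eme1, the regulatory subunit, read 8.11, 8.60 and 8.30 against 7.98, 7.11 and 7.2, and fell 1.87-fold (adjusted p = 0.0372). Mus81, the catalytic subunit, read 9.93, 9.92 and 9.98 against 9.90, 9.68 and 9.79, a difference of -0.16 (SE 0.07, adjusted p = 0.171). The 95% confidence intervals of the differences were -1.44 to -0.37 for Eme1 and -0.31 to -0.00039 for Mus81, and the difference between the 2 genes was not tested.

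The Fanconi core complex is a ubiquitin ligase built from modules, and its genes differed in their values. Of 9 members, counting the ubiquitin-conjugating enzyme Ube2t, 4 fell and 0 rose, beside 8.19% and 6.85% of all genes. At an unadjusted p under 0.05 in limma, 5 were lower and 1 higher, beside 2806 and 2982 of the 19938 genes. Without L1CAM replicate 1, 5 were called lower, with Ube2t added (12.9% of all genes), and without any other array 0 (2.90% to 4.80%). Fancb, of the catalytic module, read 7.77, 7.94 and 7.73 against 7.52, 6.49 and 6.48. It fell 1.98-fold, the largest drop in the core (adjusted p = 0.0415, and up to 0.143 with another array left out). Fancl, the ligase subunit of the same module, read 7.98, 7.93 and 7.80 against 8.27, 8.0 and 8.13. It was the member whose 3 L1CAM arrays all lay above the controls, with replicate 1 highest, but its difference of 0.23 (SE 0.08) was not called (adjusted p = 0.109).

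Fanca and Fancg, which form another module, both fell. Fanca read 7.68, 7.95 and 7.92 against 7.54, 7.06 and 6.86, a 1.62-fold drop (adjusted p = 0.0304), and Fancg fell 1.27-fold (adjusted p = 0.0394). Fancm, the translocase that anchors the core on DNA, read 7.35, 7.33 and 7.07 against 6.99, 6.19 and 6.30, and fell 1.69-fold to a mean below the array medians (adjusted p = 0.0401). Ube2t read 7.80, 8.05 and 8.0 against 7.75, 7.0 and 7.01. Its difference of -0.70 (SE 0.19) lay just outside the threshold (adjusted p = 0.0508), while Brip1, at 0.0427, was the called member nearest to it. With another array left out, the adjusted p-values of Fanca, Fancg and Fancm reached 0.117, 0.136 and 0.137.

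Fancc, Fance and Fancf, which form the module that brings the substrate to the ligase, had differences near 0. These were 0.00 for Fancc (95% confidence interval -0.20 to 0.20), 0.05 for Fance (-0.12 to 0.22) and -0.04 for Fancf (-0.18 to 0.11). In all 3 genes the groups overlapped. Fancc lay below the array medians in both groups, and the sign of its difference changed under several settings.

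Both genes of the ubiquitinated substrate fell. Fancd2 read 7.67, 7.97 and 7.82 on the control arrays and 7.22, 6.12 and 6.05 on the L1CAM arrays, from 7.82 ± 0.15 to 6.46 ± 0.66 (SD, n = 3). It fell by 1.36 (SE 0.28), 2.56-fold (adjusted p = 0.0197, and up to 0.0853 with another array left out). Fanci, its partner, read 7.30, 7.67 and 7.78 against 7.16, 6.38 and 6.33, and fell 1.95-fold (adjusted p = 0.0291, and up to 0.113). The groups were apart in both genes, and Fancd2 ended below the array medians.

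Because many members moved together, the stretch around their transcription start was read from RefSeq windows of GRCm38.p6, which run from 250 bases before to 50 bases after the start. The table held a window for 25 of the 33 genes, all among those measured. Shown are the 5 called genes of largest drop with a window, and Fancc, the member of smallest difference. Each is written 5′ to 3′ along the gene, and capitals mark matches on either strand to TTCCCGC or TTGGCGC, the letters of an E2F motif, or to CCAAT.
Rad51ap1 (chr6:126939538-126939837, minus strand): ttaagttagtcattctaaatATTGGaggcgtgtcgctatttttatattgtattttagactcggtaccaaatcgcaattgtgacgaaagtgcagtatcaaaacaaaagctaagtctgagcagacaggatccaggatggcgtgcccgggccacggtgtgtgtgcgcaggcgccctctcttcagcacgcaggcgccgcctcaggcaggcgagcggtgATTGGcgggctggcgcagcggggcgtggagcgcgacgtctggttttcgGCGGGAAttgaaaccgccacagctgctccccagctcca
Brca1 (chr11:101551906-101552205, minus strand): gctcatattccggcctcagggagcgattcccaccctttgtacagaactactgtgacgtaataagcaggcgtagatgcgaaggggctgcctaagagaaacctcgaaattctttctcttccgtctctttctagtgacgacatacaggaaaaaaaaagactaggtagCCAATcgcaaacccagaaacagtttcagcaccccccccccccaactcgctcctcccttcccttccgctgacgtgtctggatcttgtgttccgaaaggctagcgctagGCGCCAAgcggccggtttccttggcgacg
Brip1 (chr11:86201144-86201443, minus strand): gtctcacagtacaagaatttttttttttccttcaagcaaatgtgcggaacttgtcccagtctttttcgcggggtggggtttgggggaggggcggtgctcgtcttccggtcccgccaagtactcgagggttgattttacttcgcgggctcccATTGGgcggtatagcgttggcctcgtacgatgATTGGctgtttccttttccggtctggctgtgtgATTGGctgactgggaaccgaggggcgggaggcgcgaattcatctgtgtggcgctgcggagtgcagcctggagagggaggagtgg
Fancb (chrX:164980342-164980641, plus strand): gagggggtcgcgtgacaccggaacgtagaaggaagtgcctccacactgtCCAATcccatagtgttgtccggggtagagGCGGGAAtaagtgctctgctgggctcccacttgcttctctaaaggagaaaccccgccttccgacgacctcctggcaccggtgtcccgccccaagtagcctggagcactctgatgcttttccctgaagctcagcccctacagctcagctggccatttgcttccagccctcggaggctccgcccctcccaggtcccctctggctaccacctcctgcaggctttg
Fanci (chr7:79392088-79392387, plus strand): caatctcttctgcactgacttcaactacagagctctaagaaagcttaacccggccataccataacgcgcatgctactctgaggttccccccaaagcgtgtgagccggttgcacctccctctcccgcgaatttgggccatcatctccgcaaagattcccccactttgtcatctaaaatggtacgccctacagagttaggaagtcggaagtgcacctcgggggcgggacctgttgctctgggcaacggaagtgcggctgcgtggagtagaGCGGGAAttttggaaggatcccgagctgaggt
Fancc (chr13:63431696-63431995, minus strand): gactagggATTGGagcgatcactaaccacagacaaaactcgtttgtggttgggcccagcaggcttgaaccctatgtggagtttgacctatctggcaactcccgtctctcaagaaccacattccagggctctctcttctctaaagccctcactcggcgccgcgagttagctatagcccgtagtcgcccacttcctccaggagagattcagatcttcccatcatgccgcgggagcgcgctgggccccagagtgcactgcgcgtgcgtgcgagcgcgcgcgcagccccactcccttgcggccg
The E2F letters were found in 4 of the 5 called genes shown, in Rad51ap1, Brca1 and Fanci at 13, 22 and 19 bases after the start and in Fancb upstream. They were not found in the windows of Brip1, which holds 3 CCAAT matches, or Fancc. Only TTCCCGC and TTGGCGC were searched, so other forms of an E2F motif were not counted in any gene. Over the 25 members with a window, 10 (40.0%) held the E2F letters, against 9.49% of the 15614 tested genes with a window. CCAAT was found in 16 (64.0%, against 38.2%), and TTTGAA, the letters of the CHR element of cell cycle genes, in 2 (8%, against 15.2%). CCAAT on the other strand reads ATTGG and can share bases with TTGGCGC. The E2F letters were in 6 of 12 called and 4 of 13 other members. These are matches of letters in 1 window per gene, described without a test, and do not show binding.

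Part of the remaining genes of these pathways fell as well. A list of 71 further genes of recombination, checkpoint signalling and fork protection had 66 measured members. Of these, 22 fell and 0 rose (8.19% and 6.85% of all genes). At an unadjusted p under 0.05 in limma, 34 were lower and 1 higher, beside 2806 and 2982 of the 19938 genes. The median difference of the list was -0.19. The largest drops among the called genes were in Gen1, a nuclease that cuts Holliday junctions (2.91-fold, adjusted p = 0.0323), Parpbp, which restrains recombination (2.56-fold, adjusted p = 0.0375), BC055324 (1.93-fold, adjusted p = 0.0197) and Mms22l, which supports recombination at stalled forks (1.93-fold, adjusted p = 0.0463). Without L1CAM replicate 1, 34 of the 66 were called lower (12.9% of all genes), and without any other array 1 to 5 (2.90% to 4.80%). None of the 4 named genes was called in the latter fits.

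End-joining and strand-break repair genes, a route that needs no sister chromatid, held calls in both directions. Of 19 measured genes 5 fell and 3 rose, beside 8.19% and 6.85% of all genes, with a median difference of -0.08. Without L1CAM replicate 1, 6 were called lower and 3 higher, beside 12.9% and 12.0% of all genes. Without any other array, 0 to 2 were called lower (2.90% to 4.80% of all genes) and 0 to 1 higher. The share of all genes called higher was not computed for these fits. Lig1, the ligase of replication and repair, fell 2.13-fold (adjusted p = 0.0346), Aplf 1.51-fold (adjusted p = 0.0210), Parp1, a sensor of strand breaks, 1.37-fold (adjusted p = 0.0114) and Polm 1.33-fold (adjusted p = 0.0200). Lig3, a ligase of strand-break repair, rose 1.27-fold (adjusted p = 0.0351), and Xrcc4, the partner of ligase IV (adjusted p = 0.0375), and Shld1, of the shieldin complex that limits resection (adjusted p = 0.0144), each rose 1.23-fold. Highest adjusted p-values with 1 array left out were 0.128 for Lig1, 0.0855 for Aplf, 0.0574 for Parp1, 0.0818 for Polm, 0.124 for Lig3, 0.133 for Xrcc4 and 0.07 for Shld1. Parp1 kept its call in 5 of the 6 fits.

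**Figure D3:**
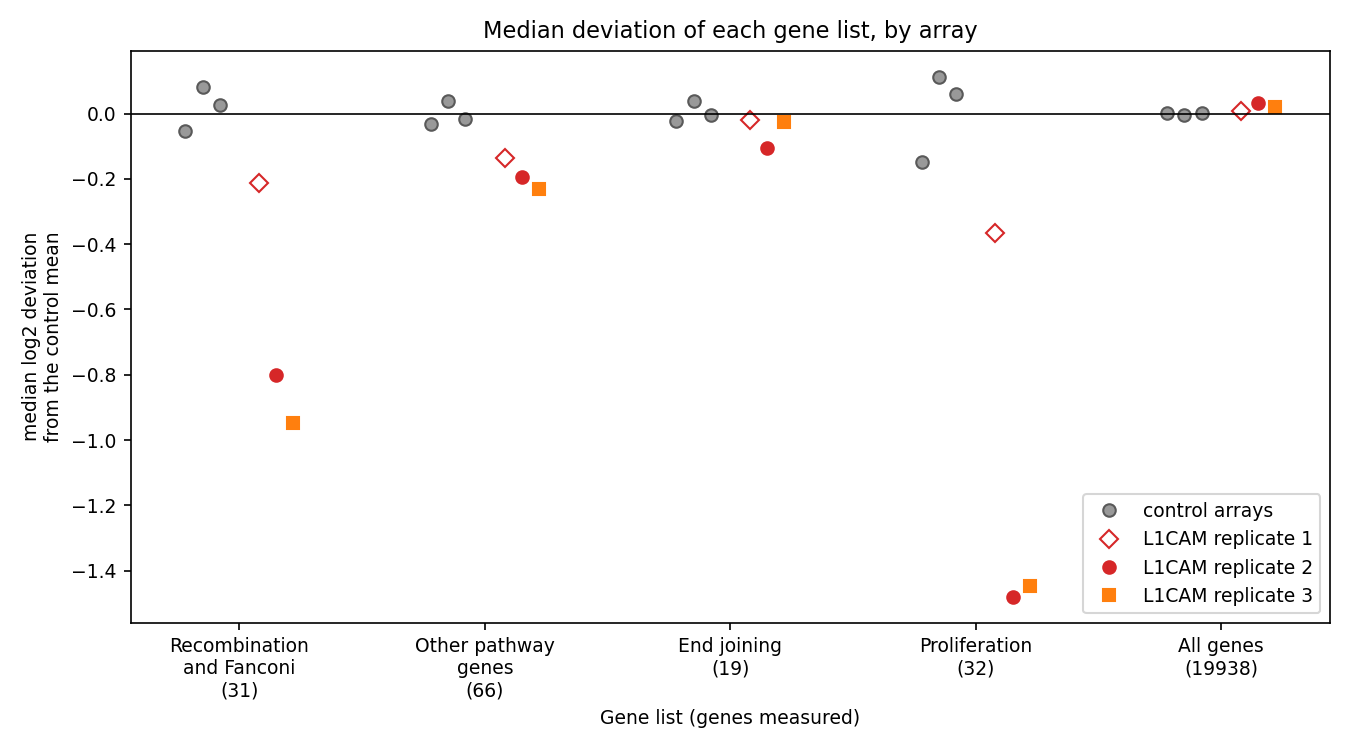
Median log2 deviation from the control mean (vertical axis) over each gene list on each array, with the number of genes measured below each list on the horizontal axis. Grey circles are control arrays, and the open diamond, red circle and square are L1CAM replicates 1, 2 and 3. The recombination and Fanconi genes lie at -0.21, -0.80 and -0.95 in replicates 1, 2 and 3 and the proliferation genes at -0.36, -1.48 and -1.45, while all genes together stay near 0.

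Proliferation genes moved with the recombination genes, array by array. The median deviation from the control mean over the 31 recombination and Fanconi genes was -0.05, 0.08 and 0.03 on control arrays 1, 2 and 3 and -0.21, -0.80 and -0.95 on L1CAM arrays 1, 2 and 3. Over 32 proliferation genes it was -0.15, 0.11 and 0.06 and then -0.36, -1.48 and -1.45. In both lists control replicate 1 was the lowest control and L1CAM replicate 1 the highest L1CAM array. Of the 32 proliferation genes 23 fell and 0 rose, beside 8.19% and 6.85% of all genes, with a median difference of -1.08. At an unadjusted p under 0.05 in limma, 32 were lower and 0 higher, beside 2806 and 2982 of the 19938 genes. All 32 were called lower without L1CAM replicate 1, beside 12.9% of all genes, and without any other array 0 to 1 (2.90% to 4.80%). Examples were the checkpoint kinase Bub1 (3.00-fold), the repressor E2f8 (2.93-fold), Rrm2, which makes deoxynucleotides (2.92-fold), and cyclin Ccne2 (2.82-fold), with adjusted p-values of 0.0277, 0.0201, 0.0295 and 0.0415. Mki67, present in dividing cells, read 10.66, 11.03 and 11.02 against 10.49, 9.22 and 9.20 (2.41-fold lower, adjusted p = 0.0378), and Pcna, the replication clamp, fell 1.37-fold (adjusted p = 0.0441). These 6 genes lost their calls when any array but L1CAM replicate 1 was left out, with adjusted p-values up to 0.157. The part of proliferation in the recombination result was not tested, and in bulk samples fewer cells in S and G2 phase and less RNA per cell cannot be told apart.

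The spread among L1CAM cultures was itself larger for these genes. The median SD of the members was 0.12 among control arrays and 0.39 among L1CAM arrays, against 0.07 and 0.09 over all genes. The SD was larger in L1CAM cells in 27 of the 31 members, against 60.6% of all genes. L1CAM replicate 1 was the highest L1CAM array in 28 of 31 members and in 35.3% of all genes. L1CAM replicates 2 and 3 both lay below all controls in 26 members (22.6% of all genes), and replicate 1 did so in 21 (31.5%).

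The number of members called lower depended on the setting. It was 14 with quantile normalization run again (7.88% of all genes), with array medians set equal (8.12%) and with all probe sets entered (8.09%). It was 15 when the probe sets of a gene were averaged (8.2%), 17 with a variance trend on intensity (8.92%), and 17 of 28 after dim probe sets were left out (16.3%). A robust variance prior gave 6 members against 7.59% of all genes, so 8 calls were lost at about the same background. Fancd2, Rad51b, Rad54l, Xrcc3, Fanca and Fancg kept theirs. Array weights gave 23 lower (13.2%) and 1 higher, Rad54b (12.8%). These were the same genes as those called without L1CAM replicate 1, and the weights were likewise estimated from these same values.

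**Figure D4:**
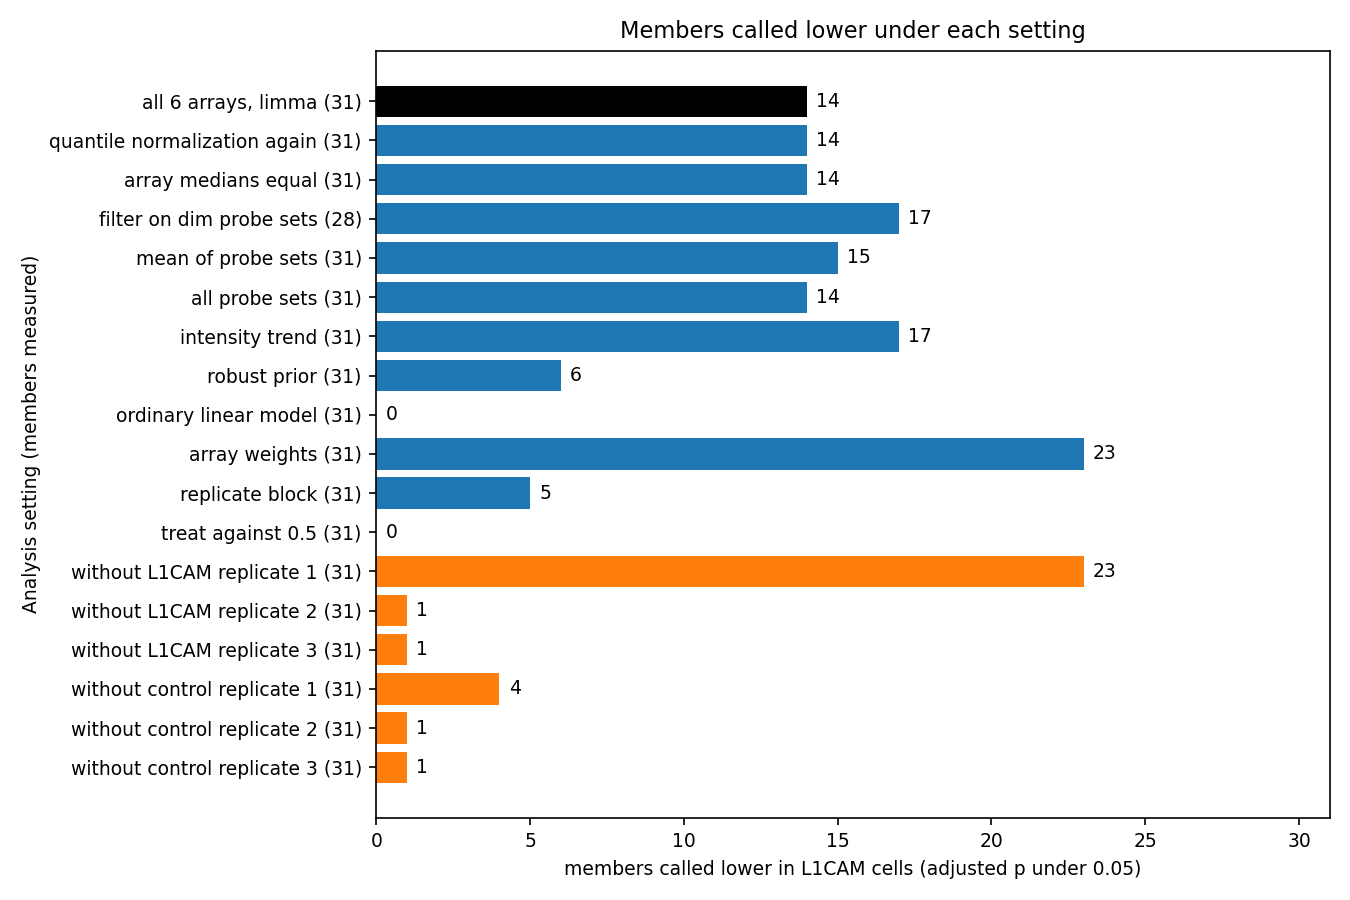
Number of members called lower in L1CAM cells (horizontal axis, adjusted p under 0.05) under each setting of the analysis (vertical axis, with the number of members measured in brackets). The black bar is the fit on all 6 arrays with 14 calls, blue bars are other settings and orange bars leave out 1 array. The count reaches 23 without L1CAM replicate 1 or with array weights and is 0 with an ordinary linear model or a test against a difference of 0.5.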

How the data were processed

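Total RNA from 6 cultures was labelled and hybridised to Affymetrix arrays, 1 array each, 3 per group. The authors deposited a log2 value for each probe set. Per the submitters' processing notes, these came from RMA, run in Affymetrix Expression Console 1.1. RMA corrects background, normalizes between arrays and summarises probes. The genome build is not given in the sources used here. No detection calls were used, so dim values near background compress differences. Array number limits the precision.

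Of 35512 probe sets, 21789 had 1 gene symbol in the platform annotation, 1621 several and 12102 none listed. Those with 1 symbol gave 19938 genes. Groups came from the sample titles. Differences were fitted in R 4.3.3 by limma 3.58.1 (lmFit, eBayes), group as the only term, two-sided, and adjusted by Benjamini-Hochberg over all genes at 0.05. Folds are 2 to the power of the log2 difference, SE is moderated. Every member is named. Values on each array were given, in each role, for up to 3 called members per direction of largest difference and up to 2 others of smallest p. The remaining members are given by their difference or fold. Of each further list up to 4 called genes per direction are named, with L1cam, Mki67 and Pcna. Vwf, Cd68, Ptprc and Erg were named after their values were seen. Members and lists were chosen with earlier results of these data known. On simulated data with independent noise in each gene and array, the procedure recovered 66% of log2 changes of 0.5 and 92% of changes of 1. No array stood apart across genes in that simulation, as L1CAM replicate 1 does here. Alternatives covered normalization, dim probe sets, probe set choice, variance models, array weights, the replicate number and each array left out. Tables were made with pandas 2.3.3 and numpy 2.4.6, and figures with matplotlib 3.10.9, under Python 3.11.15.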

Additional observations from a re-analysis of the deposited data

How the results depend on the processing

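The 14 members called lower became 23 with array weights (13.2% of all genes), 6 with a robust prior (7.59%) and 0 with an ordinary linear model (1.66%). They became 0 in a test against a difference of 0.5 (0.361%), and 1 to 23 when 1 array was left out (2.90% to 12.9%). The members called higher, 0 on all arrays, became 1 with array weights (12.8% of all genes). Without L1CAM replicate 1 there was also 1 (12.0%), Rad54b in both fits, and with any other array left out 0. For the other pathway genes, 22 called lower (8.19% of all genes) became 35 with array weights (13.2%) and 1 with an ordinary linear model (1.66%). They became 0 in the test against 0.5 (0.361%, with 3 at an unadjusted p under 0.05), and 1 to 34 when 1 array was left out (2.90% to 12.9%). Under every setting run, 0 were called higher (at most 2 at an unadjusted p under 0.05). Counts of all genes at an unadjusted p were taken only for the fit on all arrays. Quantile normalization again, equal array medians and all probe sets kept 14 members called, the mean of probe sets gave 15, and an intensity trend 17. A filter on dim probe sets, which left 28 members, gave 17. The median difference of the members ran from -0.89 to -0.55 when 1 array was left out. With the replicate number as a block, 5 members and 12 other pathway genes were called lower, against 5.74% of all genes. Deviations of same-numbered arrays correlated at -0.10, -0.10 and -0.03 across genes, and 0 of 6 arrays correlated best with their own number. With 3 arrays per group and L1CAM replicate 1 far from the others, this cannot tell whether same-numbered cultures were handled together. The titles give only the number. The difference of Fancc was -0.0021 with quantile normalization again, -0.035 with array weights, and -0.061 to 0.071 when 1 array was left out. For each of these changes the cause was not tested. The filter also left fewer genes, and the fits with 1 array left out had fewer arrays.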
